A study of Mus musculus with 19 samples.

Results

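The genes described here are 39 genes of DNA damage signalling and DNA repair, chosen by symbol from a table of 36172 genes and grouped by the pathway each is best known for. There are 9 genes of double-strand break sensing and signalling, 11 of homologous recombination, 4 of non-homologous end joining, 4 of the Fanconi anaemia pathway, 4 of mismatch repair, 3 of base excision repair and 4 of nucleotide excision repair. Each of the 39 symbols had 1 row, and all 39 passed the filter on low counts that left 15518 genes for testing. RNA was sequenced from the ovaries of C57BL/6 females, mice of a common inbred strain, aged 3, 6, 9 or 12 months, and the labels name no other treatment or genotype. Each of the ages 3, 6 and 9 months has 5 libraries, and the oldest age has 4. Nothing in the labels ties a library to its own mouse, so the spread that the tests use may be partly technical.

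A break across both strands of DNA is bound by the Mre11-Rad50-Nbn complex, which activates the kinase Atm, while single-stranded DNA activates Atr. The kinases act through checkpoint kinases and through mediators that mark the chromatin around the break. The break is then joined directly by end joining or copied from a sister or homologous chromosome by homologous recombination, a process that oocytes also use in meiosis and that follicle cells use as they replicate. The Fanconi anaemia pathway releases crosslinked strands, mismatch repair corrects copying errors, and the excision pathways replace damaged bases or short damaged stretches. The ovary matters for these genes because inherited variants of several of them, such as Brca1 and Brca2, are linked to ovarian cancer or to early loss of ovarian function in people.

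To show letters near the starts of these genes, the RefSeq promoter windows (GRCm38.p6, 250 bases before to 50 after a start) were searched on both strands for TTTCCCGC, TTTGGCGC, TTTGCCGC and TTTCGCGC, letters of the kind bound by E2F factors, which drive genes of the replication phase. At least 1 window was found for 32 of the 39 genes, and a gene was counted if any of its windows held the letters. TTTCCCGC or its reverse complement was found for 7 of the 32 genes, against 1.24% of the 27025 genes with a window. Any of the 4 motifs was found for 8 of the 32, against 2.6% of the genes with a window. The 8 stretches below hold matches in 7 of these genes, each as 30 bases on the strand of its gene, with the matched letters in capitals.
Chek2: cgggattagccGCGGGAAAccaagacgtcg
Mdc1: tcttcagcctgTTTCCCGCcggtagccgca
Brca2: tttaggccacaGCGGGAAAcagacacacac
Bard1: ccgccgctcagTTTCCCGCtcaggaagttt
Rad51c, at the start: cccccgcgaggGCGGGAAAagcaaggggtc
Rad51c, further into the gene: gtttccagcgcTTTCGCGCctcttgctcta
Xrcc6: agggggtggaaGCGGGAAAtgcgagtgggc
Msh6: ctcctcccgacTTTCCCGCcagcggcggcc
On GRCm38 these are chr5:110839820-110839849, chr17:35841471-35841500, chr5:150522442-150522471, chr1:71103163-71103192, chr11:87404941-87404970, chr11:87404477-87404506, chr15:82016312-82016341 and chr17:87975054-87975083, in the order listed. Bard1 and Rad51c lie on the minus strand. By GENCODE exons the stretches of Chek2, Mdc1, Brca2 and Bard1 touch no exon, and those of Rad51c, Xrcc6 and Msh6 overlap exons of those genes. The RefSeq gene spans differ. They begin before the stretches of Chek2 (at 110839800) and Brca2 (at 150522297) and within that of Mdc1 (at 35841495). Of the 7 genes shown, Chek2 rose and Mdc1, Brca2, Rad51c, Xrcc6 and Msh6 fell at 12 against 3 months, and Bard1 fell at 9 months. Msh3, the other gene with a match, is not shown and fell at 9 but not at 12 months. Of all 39 genes 14 fell and 1 rose at 12 months, beside 11.5% and 10.9% of all genes tested. Whether genes with a match changed more often than those without was not tested. A match is a description of these letters and not a bound site.

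Depth per library lay between 10851519 and 14302207 estimated counts. Libraries of one age spread more in the older ovaries: the biological coefficient of variation was 13.5% and 11.4% in the groups of 3 and 6 months, and 22.6% and 23.7% in those of 9 and 12 months. All 20 granulosa cell markers and 26 of 28 oocyte markers were above 0 in every library. In 3 libraries, replicates 1 and 2 at 9 months and replicate 2 at 12 months, Cr2, a gene of mature B cells and follicular dendritic cells, was above 5 CPM (counts scaled to a common library size), and counts of calls are also given without them.

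Most of the 39 genes, 33 of them, had a lower mean at 12 than at 3 months by the fit. Of the steps between neighbouring ages, only that from 6 to 9 months held calls of members by edgeR. The median log2 change of the members was -0.08 at 6 against 3 months, -0.25 at 9 against 6 and 0.06 at 12 against 9. At 6 months 29 of the 39 already had a lower mean than at 3 months (74.4%, beside 50.2% of all genes), though 0 passed the test. At 12 against 3 months 14 genes fell and 1 rose (edgeR adjusted p under 0.05), beside 11.5% and 10.9% of all genes tested (22.4% in both directions). Leaving out replicate 3 at 12 months took these 15 calls to 8, all lower, the fewest in the 19 fits that leave out 1 library. At 9 against 3 months 21 of the 39 fell and 0 rose, beside 13.6% and 11.3% of all genes (25% in all). At 9 against 6 months 18 fell and 1 rose, beside 9.8% and 7.44% (17.2% in all). Against 3 months the median log2 change of the members was -0.28 at 12 months and -0.33 at 9 months, where that of all genes was 0.02 and 0.01. The comparisons against 3 months share their 3 month libraries. That of 9 against 6 months shares its 9 month libraries with 9 against 3. The agreement between these comparisons is therefore not independent. Without the 3 libraries above 5 CPM of Cr2, 17 members fell and 1 rose at 12 against 3 months. After correcting for transcript length and GC, 9 fell and 1 rose there: Rad50, Trp53bp1, Rad51c, Prkdc, Fancm and Pms2 no longer passed, Fanca did, and the change of Atr went from -0.48 to -0.30 ± 0.08. The share of all genes called under these 2 settings is not given. These counts therefore do not tell a shift of the members from a shift of all genes. At 9 against 3 months the calls of Nbn, Trp53bp1, Rad51c, Xrcc6 and Fancm were lost in 7, 4, 5, 4 and 13 of those 19 fits, for all of them without replicate 3 at 3 months and without replicate 2 at 9 months (highest adjusted p = 0.146, for Fancm).

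**Figure D1:**
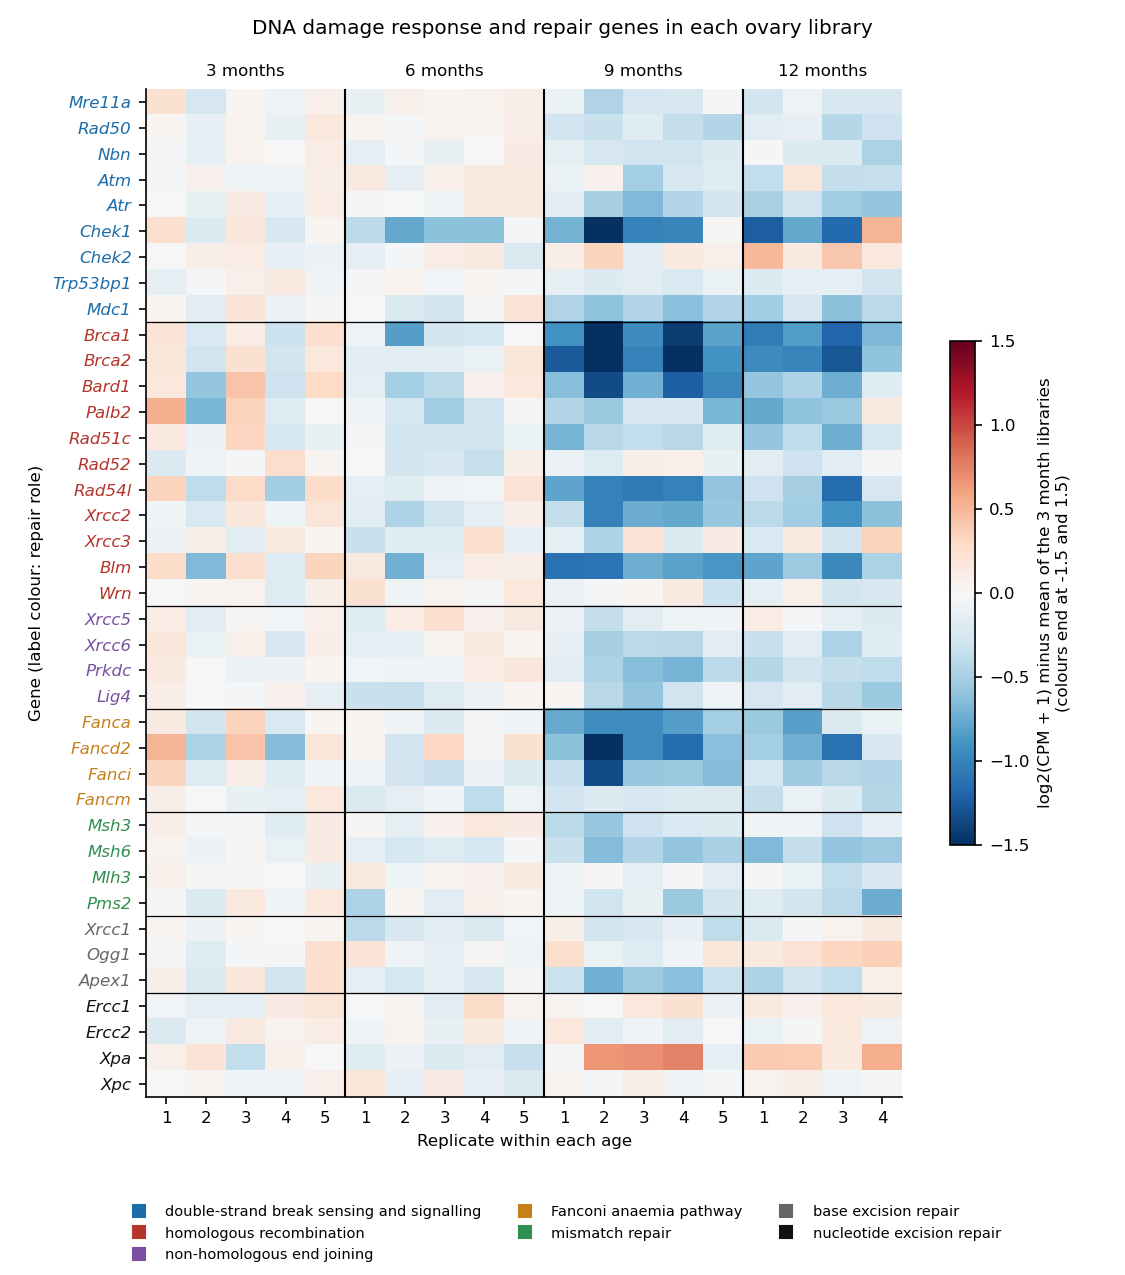
Each row is 1 of the 39 genes and each column 1 library, with colour giving log2(CPM + 1) minus the mean of the 3 month libraries, on a scale that ends at -1.5 and 1.5. Blue fills most rows of signalling, recombination, end joining, Fanconi and mismatch genes at 9 and 12 months, while the nucleotide excision rows at the bottom are near white except for Xpa, red in replicates 2, 3 and 4 at 9 months.

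Between 3 and 6 months 0 of the 39 genes passed the test by edgeR (3 of all 15518 genes did, 0.0193%, with 0.00644% lower and 0.0129% higher). With unadjusted p under 0.05 there were 2, Msh6 (-0.18 ± 0.07) and Xrcc1 (-0.21 ± 0.09), and DESeq2, limma-voom and limma-trend also called 0. Between 9 and 12 months edgeR called 0 members and 0 genes in all (0%). At unadjusted p under 0.05 there were 3, Bard1 (0.56 ± 0.24), Fanca (0.43 ± 0.16) and Msh3 (0.21 ± 0.09), each with the higher mean at 12 months. Some of 39 genes can pass an unadjusted cut-off by chance, so these 2 and 3 are not read as a result about the members. DESeq2 called 256 genes there and 0 of them were members. Along a straight line over age, given as the change over 9 months, 24 members fell and 2 rose, beside 14.8% and 14.7% of all genes (29.5% in all). A difference among any of the 4 ages was called for 21 members, beside 29% of all genes.

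The groups did not overlap for part of the genes. All 4 libraries at 12 months lay below all 5 at 3 months for 10 members, namely Rad50, Atr, Mdc1, Brca1, Brca2, Xrcc2, Prkdc, Lig4, Fanci and Msh6, where 9.75% of all genes did so. Chek2 alone lay above, where 6.72% of all genes did so. At 9 months 16 members lay wholly below the 3 month libraries, where 9.42% of all genes did so, and 0 lay above (5.52% of all genes).

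**Figure D2:**
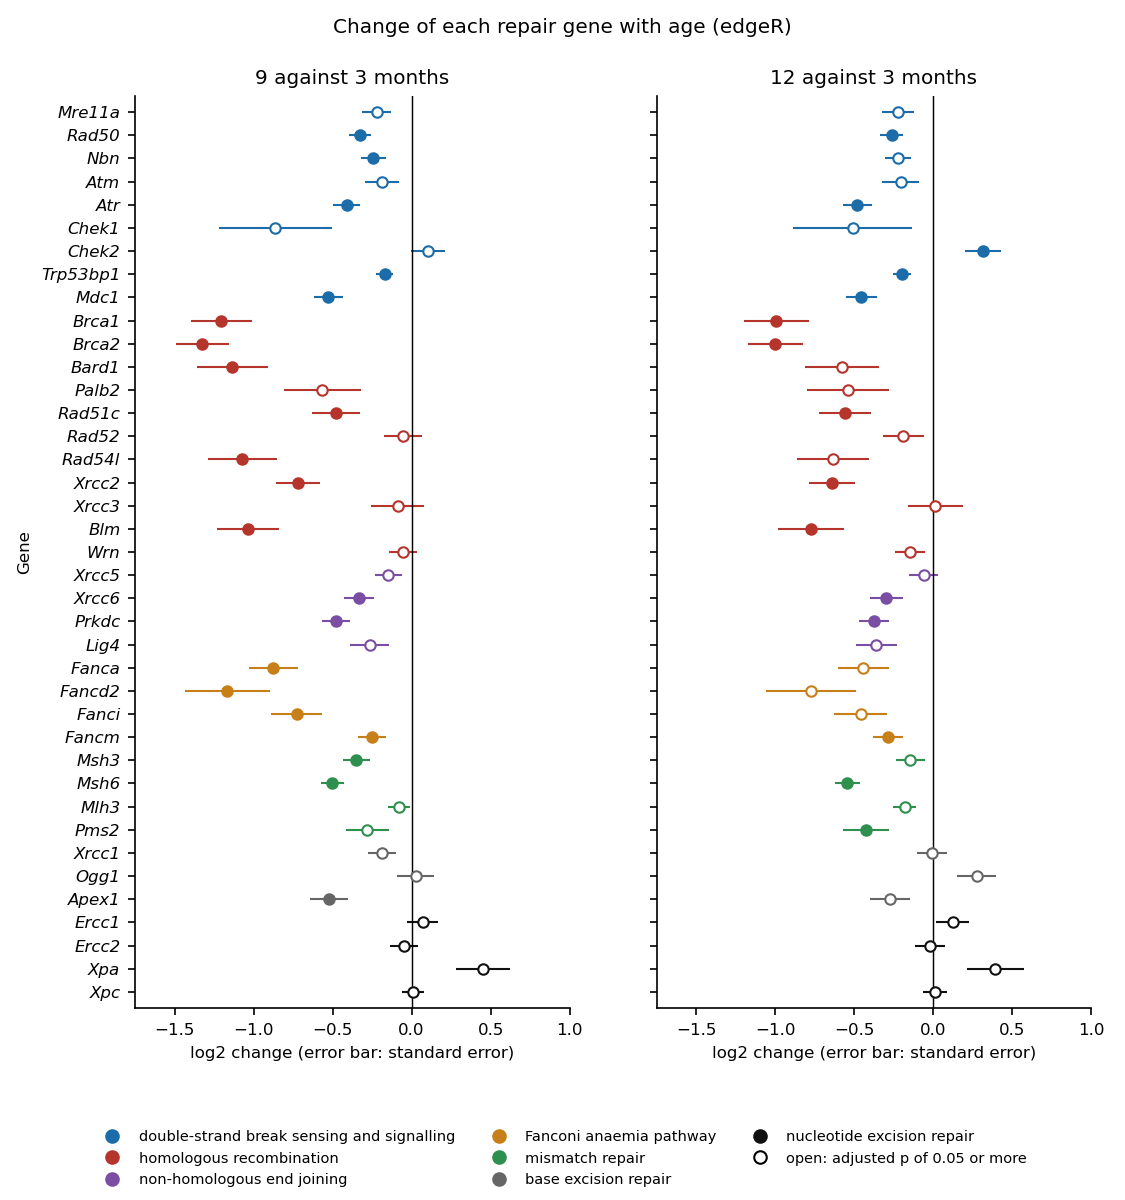
Points are the log2 changes of each gene at 9 (left) and 12 (right) against 3 months, with the standard error as bars, coloured by role, and filled where the adjusted p is under 0.05. Points of homologous recombination and Fanconi genes lie furthest left, Brca2 at -1.32 and -0.998, and Xpa, Chek2 and Ogg1 furthest right at 12 months.

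Most genes of the oocyte and proliferation lists fell with these genes, and other marker lists moved in part. Of 28 oocyte genes 25 fell at 12 against 3 months, and the summed level ran from 743 to 1047 CPM at 3 months, 404 to 813 at 6, 70.9 to 322 at 9 and 179.7 to 363 at 12 months. Of 24 proliferation genes, which serve mitosis, 22 fell, with sums of 947 to 1488, 931 to 1202, 410.5 to 719.9 and 569.8 to 967 CPM. Among 20 granulosa cell genes 5 fell and 0 rose, and among 14 theca and interstitial genes 5 fell and 1 rose, with a median of -0.31. Of immune and vascular markers 8 of 16 macrophage genes, 9 of 17 tested T and NK cell genes, 6 of 9 tested B and plasma cell genes and 6 of 14 endothelial genes rose, and 0 fell. Of 11 tested stroma and smooth muscle genes 5 rose, of 11 tested surface epithelium genes 6, of 12 corpus luteum genes 3 and of 12 oviduct genes 3, and 0 fell in each. The library with the lowest oocyte and proliferation sums, replicate 2 at 9 months (70.9 and 410.5 CPM), also had the lowest median of the 39 genes, 0.46 below the 3 month mean on the log2 scale. The same library stood at the end of other lists too. Its granulosa cell sum was the lowest (3259 CPM). Its macrophage (1484), B and plasma cell (510.4), surface epithelium (1503) and oviduct (6741 CPM) sums were the highest. Which of these go with the low median was not tested. In RNA from a whole organ, fewer cells of a type and less RNA per cell cannot be told apart.

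**Figure D3:**
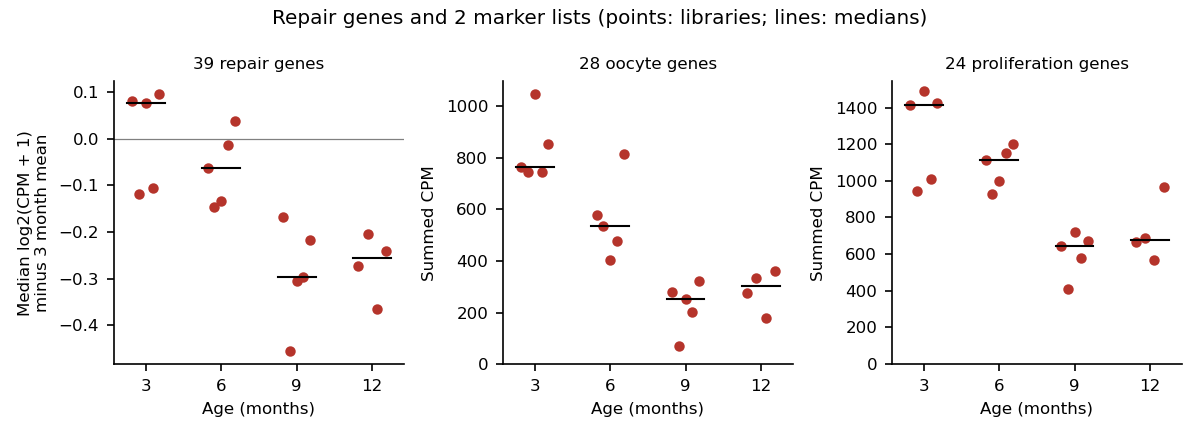
Each point is a library and each line the median of its age, for the median log2(CPM + 1) of the 39 repair genes relative to the 3 month mean, the summed CPM of 28 oocyte genes and the summed CPM of 24 proliferation genes. In each panel the 9 and 12 month libraries lie mostly below those of 3 months, and replicate 2 at 9 months is the lowest point.

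With the level of either list entered in the fit as a covariate, edgeR called 0 members at 12 against 3 months. Unadjusted p was under 0.05 for 5 of the 39 with the oocyte list and for 9 with the proliferation list, and the genes called among all tested dropped to 39 and 144. The share of all genes at that unadjusted cut-off is not given, and some of 39 genes can pass it by chance. The 5 and 9 are therefore not read as a result about the members. Brca2 then changed by -0.30 ± 0.17 with the oocyte list and by -0.28 ± 0.12 with the proliferation list. Atr changed by -0.32 ± 0.13 and -0.37 ± 0.13, and Msh6 by -0.35 ± 0.11 and -0.37 ± 0.10. The covariates fall with age themselves, so a part of the change due to age and a part due to the cells they mark cannot be told apart in such a fit.

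Among the 9 genes of break sensing and signalling, 4 fell and 1 rose at 12 against 3 months, with a median change of -0.22 (log2). Of those that passed, Atr and Mdc1 fell most. Atr is the kinase that answers to single-stranded DNA at stalled forks, and Mdc1 a mediator that binds phosphorylated histone next to breaks. Atr measured 65.1, 60.1, 70.8, 59.8 and 70.2 CPM in the 3 month libraries, 64.4, 65.2, 61.6, 71.2 and 71.3 CPM at 6 months, 57.8, 45.9, 40.8, 47.7 and 53.2 CPM at 9 months and 46.1, 52.7, 44.9 and 43.2 CPM at 12 months. The 9 and 12 month libraries all lay below the lowest 3 month value of 59.8 CPM. The change of Atr was -0.48 ± 0.09 at 12 and -0.41 ± 0.09 at 9 against 3 months (edgeR adjusted p = 0.00236 and 0.00222). Mdc1 stood at 84.9, 73.7, 95.4, 78.2 and 84.4 CPM in the 3 month libraries, 83.05, 71.6, 68.6, 82.2 and 95 CPM at 6 months, 60.7, 54.1, 60.7, 53.2 and 60.3 CPM at 9 months and 57.4, 69.6, 53.8 and 62.4 CPM at 12 months. Replicate 2 at 12 months, at 69.6 CPM, came closest to the 3 month range. Mdc1 changed by -0.46 ± 0.10 and -0.53 ± 0.09 (edgeR adjusted p = 0.00398 and 0.000581).

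Rad50, the part of the end-binding complex that tethers DNA ends, fell less. Rad50 gave 79.9, 72.3, 81.7, 72.6 and 87.5 CPM in the 3 month libraries, 80.8, 76.8, 81.7, 80.2 and 84.6 CPM at 6 months, 64.2, 62.3, 69.3, 60.9 and 57.8 CPM at 9 months and 69.5, 72.1, 58.3 and 62.9 CPM at 12 months. The highest 12 month library, 72.1 CPM, was just under the lowest at 3 months, 72.3 CPM. The change was -0.26 ± 0.07 (edgeR adjusted p = 0.0153), and without replicate 3 at 12 months the adjusted p was 0.065. Its partners Mre11a, a nuclease, and Nbn changed by -0.22 ± 0.10 and -0.22 ± 0.08 and did not pass the test at 12 months (edgeR adjusted p = 0.117 and 0.0597). Nbn passed at 9 months (-0.24 ± 0.08, edgeR adjusted p = 0.0298), and both did along the trend. The trend call of Mre11a was lost in 7 of the 19 fits that leave out 1 library, those without replicates 1, 3 or 5 at 3 months, replicate 3 at 6 months, replicate 4 at 9 months, or replicates 1 or 3 at 12 months (highest adjusted p = 0.103), in limma-voom, and after correcting for length and GC. Leaving out replicate 2 at 3 months or replicate 1 at 12 months brought Nbn past the threshold at 12 months (lowest adjusted p = 0.020).

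Trp53bp1, the mediator that holds back end resection, fell by a small amount, from 117 ± 9.16 CPM at 3 months to 102 ± 5.14 CPM at 12 months (mean ± SD, n = 5 and 4), a log2 change of -0.20 ± 0.06 (edgeR adjusted p = 0.0195). The kinase Atm changed by -0.21 ± 0.12 and did not pass (edgeR adjusted p = 0.207), with replicate 2 at 12 months at 61.8 CPM against 41.6 to 42.5 CPM in the others. Leaving out that library gave -0.37 and an adjusted p of 0.014. Chek1, the checkpoint kinase downstream of Atr, had the widest spread. Chek1 had 30.8, 22.3, 29.3, 21.9 and 26.6 CPM in the 3 month libraries, 19.6, 14.9, 16.5, 16.6 and 25.5 CPM at 6 months, 15.5, 5.40, 12.3, 12.6 and 26.3 CPM at 9 months and 10.5, 14.8, 10.98 and 37.2 CPM at 12 months. Replicate 4 at 12 months lay above every 3 month library, and the other 12 month libraries lay below them all. That replicate had the highest proliferation, oocyte, granulosa cell, endothelial, theca and interstitial (12020 CPM) and corpus luteum (8000 CPM) sums of its age. It also had the lowest macrophage (863.5), surface epithelium (861) and stroma and smooth muscle (4975 CPM) sums. At 9 months replicate 5, with the highest Chek1, had the highest oocyte and granulosa cell sums, and replicate 3 the highest proliferation sum. Replicate 5 also had the lowest macrophage, T and NK cell, B and plasma cell, endothelial and stroma and smooth muscle sums of that age. The part of these cells in the spread was not tested. Chek1 changed by -0.51 ± 0.38 (edgeR adjusted p = 0.348), and by -1.12 with an adjusted p of 0.023 without replicate 4. Its libraries are given because the spread was noticed in the data. Chek2, the checkpoint kinase downstream of Atm, was the 1 member that rose at 12 months. Chek2 showed 19.5, 20.6, 20.96, 17.7 and 18.2 CPM in the 3 month libraries, 17.4, 18.9, 20.9, 21.4 and 16.5 CPM at 6 months, 20.8, 24.6, 17.03, 21.4 and 20.5 CPM at 9 months and 27.4, 21.4, 25.96 and 21.7 CPM at 12 months. The 4 libraries at 12 months lay above all 5 at 3 months, with replicates 2 and 4 by less than 1 CPM. The change of 0.31 ± 0.11 was at the threshold (edgeR adjusted p = 0.0499), and the call held in only 5 of the 19 fits that leave out 1 library: those without replicate 5 at 6 months, replicates 2 or 3 at 9 months, or replicates 2 or 4 at 12 months. The highest adjusted p among the others was 0.155. Its trend call was lost without replicates 4 or 5 at 3 months or replicates 1 or 3 at 12 months (highest adjusted p = 0.10), and in limma-voom.

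Homologous recombination held the largest changes of single genes at 12 and 9 against 3 months, and the lowest median of any role at 12 months. At 9 months the Fanconi genes had the lowest median, -0.80. Of 11 genes 5 fell and 0 rose at 12 against 3 months, with a median of -0.58, and 7 fell at 9 months, with a median of -0.72. Brca2, a mediator that acts on resected ends, and Brca1, which acts with Bard1 as a ubiquitin ligase at breaks, were each near 0.50 of their 3 month level at 12 months. Brca2 measured 40.3, 28.4, 41.6, 29.1 and 39.5 CPM in the 3 month libraries, 31.5, 31.2, 31.4, 32.9 and 40.2 CPM at 6 months, 14.1, 9.86, 17.03, 11.9 and 18.6 CPM at 9 months and 17.7, 17.3, 13.9 and 22.8 CPM at 12 months. All 9 libraries at 9 and 12 months lay below the lowest at 3 and 6 months, 28.4 CPM. Brca2 changed by -0.998 ± 0.18 at 12 months and -1.32 ± 0.17 at 9 months (edgeR adjusted p = 0.00153 and 6.84e-05). Brca1 reached 32.9, 24.4, 31.3, 22.7 and 34.5 CPM in the 3 month libraries, 27.5, 15.8, 23.6, 23.8 and 28.8 CPM at 6 months, 14.8, 7.78, 14.5, 10.1 and 16.1 CPM at 9 months and 13.4, 15.6, 12.1 and 17.6 CPM at 12 months. Replicate 2 at 6 months, at 15.8 CPM, was the 1 library of that age below the 3 month range, and all older libraries were below it. Brca1 changed by -0.99 ± 0.21 and -1.20 ± 0.19 (edgeR adjusted p = 0.0036 and 0.000369). The calls of Brca1 and Brca2 at 12 and 9 months held whichever library was left out.

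Xrcc2, which acts early in recombination, followed the same course at a smaller size. Xrcc2 gave 25.1, 22.3, 29.6, 25.1 and 30.01 CPM in the 3 month libraries, 23.4, 18.8, 21.2, 23.8 and 28.3 CPM at 6 months, 20.2, 12.5, 15.3, 15.1 and 17.4 CPM at 9 months and 19.6, 18.1, 13.5 and 16.9 CPM at 12 months. The older libraries were all under the lowest 3 month value of 22.3 CPM, with replicate 2 at 9 months lowest. Xrcc2 changed by -0.64 ± 0.15 and -0.72 ± 0.14 (edgeR adjusted p = 0.00557 and 0.00111). Rad51c, which acts in complexes with Xrcc2 or Xrcc3, changed by -0.56 ± 0.16 at 12 months (edgeR adjusted p = 0.02), a call lost without replicate 3 at 3 months or replicates 1 or 3 at 12 months (highest adjusted p = 0.082). Blm, a helicase that undoes recombination intermediates, changed by -0.77 ± 0.21 (edgeR adjusted p = 0.0132, and 0.054 without replicate 3 at 12 months).

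Bard1 and Rad54l, a motor protein that helps invasion of the partner strand, passed the test at 9 but not at 12 against 3 months. Bard1 changed by -1.13 ± 0.22 and Rad54l by -1.07 ± 0.22 (edgeR adjusted p = 0.00143 and 0.00187), and by -0.58 ± 0.23 and -0.63 ± 0.23 at 12 months (edgeR adjusted p = 0.0797 and 0.0533). Neither difference between 9 and 12 months passed the test. Along the trend both passed, Bard1 not without replicates 1, 3 or 5 at 3 months (highest adjusted p = 0.072) and not after correcting for length and GC. At 12 months Bard1 passed without replicate 2 at 3 months, and Rad54l without replicates 2 or 4 at 3 months or replicate 4 at 12 months (lowest adjusted p = 0.033 and 0.024). Palb2, the bridge between Brca1 and Brca2, changed by -0.54 ± 0.26 and did not pass (edgeR adjusted p = 0.141). It passed without replicate 2 at 3 months or replicate 4 at 12 months (lowest adjusted p = 0.027), and its 3 month libraries ran from 4.04 to 10.7 CPM. Rad52, Xrcc3 and Wrn, a helicase related to Blm, changed by -0.19 ± 0.13, 0.01 ± 0.18 and -0.14 ± 0.10 and did not pass in any comparison.

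**Figure D4:**
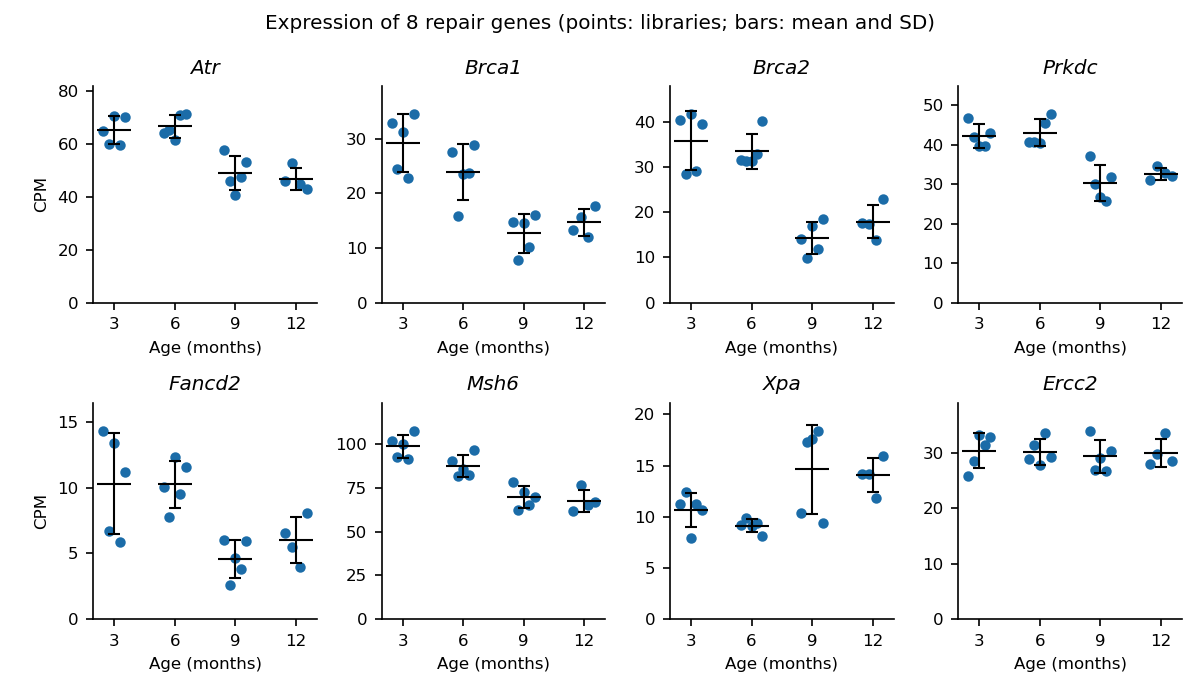
CPM of 8 genes against age in months, with each library as a point and bars for the mean and SD. Atr, Brca1, Brca2, Prkdc, Fancd2 and Msh6 step down between 6 and 9 months, Xpa splits into high and low libraries at 9 months, and Ercc2 stays near 30 CPM.

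Of the 4 end joining genes, 2 fell at 12 months and the same count at 9 months, with medians of -0.33 and -0.30. Prkdc, the catalytic subunit of the DNA-dependent protein kinase, had the lowest p. Prkdc measured 46.9, 41.9, 39.7, 39.8 and 43.1 CPM in the 3 month libraries, 40.8, 40.8, 40.5, 45.5 and 47.8 CPM at 6 months, 37.3, 30.1, 26.7, 25.7 and 31.9 CPM at 9 months and 31.04, 34.6, 32.8 and 32.2 CPM at 12 months. The 9 and 12 month libraries all lay below the lowest 3 month library, at 39.7 CPM. Prkdc changed by -0.37 ± 0.09 and -0.48 ± 0.09 (edgeR adjusted p = 0.00986 and 0.000961). Xrcc6, a subunit of the Ku ring that holds DNA ends, was less firm. Xrcc6 stood at 59.2, 48.8, 55.3, 43.7 and 56.4 CPM in the 3 month libraries, 47.5, 47.2, 53.9, 57.5 and 53.4 CPM at 6 months, 47.96, 36.6, 39.2, 39.1 and 46.3 CPM at 9 months and 41.2, 46.7, 37.6 and 46.2 CPM at 12 months. Replicate 4 at 3 months, 43.7 CPM, lay among the older libraries. Xrcc6 changed by -0.30 ± 0.10 (edgeR adjusted p = 0.0441), and the call was lost without any 1 of replicates 1, 3 or 5 at 3 months, replicates 1, 3 or 5 at 6 months, replicate 4 at 9 months, or replicates 1 or 3 at 12 months (highest adjusted p = 0.161). The other Ku subunit, Xrcc5, changed by -0.06 ± 0.09 (edgeR adjusted p = 0.668).

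Lig4, the ligase that seals the joined ends, lay just outside the threshold at 12 months. Lig4 had 21.98, 20.3, 19.9, 21.4 and 18.6 CPM in the 3 month libraries, 15.99, 15.9, 17.8, 19.1 and 20.9 CPM at 6 months, 20.9, 15.1, 13.2, 16.5 and 19.4 CPM at 9 months and 17.04, 18.1, 15.1 and 13.5 CPM at 12 months. The 12 month libraries were all below the lowest 3 month value of 18.7 CPM, while replicates 1 and 2 at 6 months were also low. Lig4 changed by -0.36 ± 0.13 (edgeR adjusted p = 0.0509) and passed along the trend (-0.35 ± 0.12, edgeR adjusted p = 0.0276). The trend call was lost without replicates 1 or 4 at 3 months or replicates 3 or 4 at 12 months (highest adjusted p = 0.065), and after correcting for length and GC. Lig4 passed at 12 months without replicate 5 at 6 months, replicates 1, 2, 3 or 5 at 9 months, or replicate 2 at 12 months (lowest adjusted p = 0.034).

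All 4 Fanconi genes fell at 9 months, with a median of -0.80, and 1, Fancm, fell at 12 months, where the median was -0.45. Fancd2, which with Fanci forms the clamp that the pathway ubiquitinates, changed most. Fancd2 gave 14.3, 6.72, 13.4, 5.83 and 11.2 CPM in the 3 month libraries, 10.1, 7.79, 12.3, 9.50 and 11.6 CPM at 6 months, 6.00, 2.59, 4.64, 3.82 and 5.93 CPM at 9 months and 6.57, 5.51, 3.93 and 8.08 CPM at 12 months. At 3 months the libraries split widely, with replicates 2 and 4 at 6.73 and 5.83 CPM, close to the 12 month values. Fancd2 changed by -1.17 ± 0.27 at 9 months (edgeR adjusted p = 0.00448) and by -0.77 ± 0.29 at 12 months (edgeR adjusted p = 0.057). Fanci had 19.8, 13.4, 16.6, 13.5 and 14.7 CPM in the 3 month libraries, 14.7, 12.5, 12.1, 14.4 and 13.2 CPM at 6 months, 11.9, 5.47, 10.1, 10.2 and 9.51 CPM at 9 months and 12.7, 10.3, 11.3 and 11.1 CPM at 12 months. Replicate 2 at 9 months was the lowest, at 5.47 CPM, and the 12 month libraries lay just under the 3 month range. Fanci changed by -0.73 ± 0.16 and -0.46 ± 0.17 (edgeR adjusted p = 0.00305 and 0.0568).

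Fanca, part of the core complex that carries the ligase, was low at 9 months. Fanca measured 16.5, 12.2, 19.02, 12.5 and 15.2 CPM in the 3 month libraries, 15.3, 14.1, 12.8, 14.6 and 14.4 CPM at 6 months, 8.44, 7.34, 7.30, 7.96 and 10.1 CPM at 9 months and 9.85, 8.04, 12.7 and 13.8 CPM at 12 months. Replicates 3 and 4 at 12 months were back within the 3 month range. Fanca changed by -0.87 ± 0.15 and -0.44 ± 0.16 (edgeR adjusted p = 0.000624 and 0.0533). Fancm, the motor that brings the core complex to DNA, changed by -0.28 ± 0.10 at 12 months (edgeR adjusted p = 0.0384), a call lost without any 1 of replicates 1, 2 or 5 at 3 months or replicates 1, 3 or 4 at 12 months (highest adjusted p = 0.098). At 12 months Fancd2 and Fanca each passed in 4 of the 19 fits that leave out 1 library, both without replicates 2 or 4 at 3 months or replicate 4 at 12 months, Fancd2 also without replicate 2 and Fanca without replicate 5 at 9 months (lowest adjusted p = 0.025 and 0.021). Fanci passed in 3, without replicate 4 at 3 months or replicates 1 or 2 at 9 months (lowest adjusted p = 0.013). Along the trend all 4 passed, Fanca not without replicate 3 at 3 months, Fanci not without replicate 1, and Fancm not without replicates 1 or 5 at that age (highest adjusted p = 0.053, 0.051 and 0.060).

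In mismatch repair, Msh6 and Pms2 fell at 12 months and Msh3 and Msh6 at 9 months, with medians of -0.30 and -0.32 over the 4 genes. Msh6, which recognises single mismatches and small loops, had the smallest p of the 39 genes at 12 months. Msh6 stood at 102, 92.3, 99.8, 91.5 and 108 CPM in the 3 month libraries, 90.3, 81.5, 85.8, 82.2 and 96.8 CPM at 6 months, 78.2, 62.4, 72.6, 64.98 and 69.9 CPM at 9 months and 61.8, 76.5, 65.4 and 66.9 CPM at 12 months. Every library at 9 and 12 months lay below every library at 3 and 6 months. Msh6 changed by -0.54 ± 0.08 and -0.50 ± 0.07 (edgeR adjusted p = 0.000419 and 0.000188), and its calls held whichever library was left out. Msh3, which recognises larger loops, changed by -0.35 ± 0.09 at 9 months and -0.14 ± 0.09 at 12 months (edgeR adjusted p = 0.00675 and 0.27).

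Pms2, a nuclease subunit, ran lower at 12 months. Pms2 gave 15.5, 13.5, 17.6, 15.02 and 17.8 CPM in the 3 month libraries, 11.2, 16.1, 14.1, 16.7 and 16.2 CPM at 6 months, 14.9, 12.7, 14.5, 10.4 and 12.9 CPM at 9 months and 13.7, 12.9, 11.7 and 9.07 CPM at 12 months. Replicate 1 at 12 months lay inside the 3 month range and replicate 4 was the lowest of all libraries, at 9.07 CPM. Pms2 changed by -0.42 ± 0.14 (edgeR adjusted p = 0.0423), and the call was lost without any 1 of replicates 1, 3 or 5 at 3 months or replicates 3 or 4 at 12 months (highest adjusted p = 0.114). Mlh3 had 48.8, 46.8, 46.6, 46.1 and 42.5 CPM in the 3 month libraries, 51.2, 44.2, 47.8, 48.3 and 50.8 CPM at 6 months, 43.8, 46.5, 41.7, 45.5 and 40.9 CPM at 9 months and 45.6, 43, 35.5 and 38.99 CPM at 12 months. Replicates 3 and 4 at 12 months lay below the 3 month range and the other 12 month libraries within it. Mlh3, which also acts in meiotic crossing over, changed by -0.18 ± 0.07 (edgeR adjusted p = 0.084, and 0.036 without replicate 1 at 12 months) and was just past the threshold along the trend (-0.20 ± 0.07, edgeR adjusted p = 0.0466). That call held in 3 of the 19 fits that leave out 1 library, those without replicate 5 at 3 months, replicate 2 at 9 months or replicate 1 at 12 months (highest adjusted p among the others = 0.157). It was also lost with DESeq2 size factors, in limma-voom, without the filter, after correcting for length and GC and without the 3 libraries above 5 CPM of Cr2.

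The excision pathways had few calls. Of 3 base excision genes 0 passed at 12 months and 1, Apex1, fell at 9 months. Apex1 is the endonuclease that cuts at sites left without a base. Apex1 measured 51.2, 41.1, 53.97, 39 and 56.97 CPM in the 3 month libraries, 43.3, 39.8, 44.02, 40.4 and 48.3 CPM at 6 months, 38.1, 28.7, 32.9, 30.6 and 38.1 CPM at 9 months and 34.5, 38.6, 36.9 and 50.4 CPM at 12 months. The 9 month libraries lay below all at 3 months, and replicate 4 at 12 months, at 50.4 CPM, lay within the 3 month range. Apex1 changed by -0.52 ± 0.12 at 9 months and -0.27 ± 0.13 at 12 months (edgeR adjusted p = 0.00399 and 0.129), and passed at 12 months without that replicate 4 (adjusted p = 0.025). Its trend call (-0.37 ± 0.14, edgeR adjusted p = 0.0452) held in 4 of the 19 fits that leave out 1 library, those without replicates 2 or 4 at 3 months, replicate 2 at 6 months or replicate 4 at 12 months (highest adjusted p among the others = 0.123), and was lost in limma-trend, without the filter and without the 3 libraries above 5 CPM of Cr2. Ogg1, the glycosylase that removes oxidised guanine, had no call. Ogg1 gave 10.5, 9.34, 10.6, 10.5 and 12.8 CPM in the 3 month libraries, 12.3, 10.2, 9.62, 10.8 and 10.1 CPM at 6 months, 13.02, 9.94, 9.20, 10.2 and 12.2 CPM at 9 months and 11.9, 12.6, 13.6 and 13.98 CPM at 12 months. Its 12 month libraries lay in the upper part of the 3 month range or above it, a change of 0.28 ± 0.12 (edgeR adjusted p = 0.113). Xrcc1 stood at 37.1, 33.9, 36.8, 35.8 and 36.9 CPM in the 3 month libraries, 27.04, 30.4, 32.3, 30.97 and 34.9 CPM at 6 months, 38.3, 29.6, 30.3, 32.9 and 27.5 CPM at 9 months and 30.96, 35.7, 37.5 and 39.7 CPM at 12 months. The ages overlap throughout, and Xrcc1, the scaffold of single-strand break repair, changed by -0.00 ± 0.09 (edgeR adjusted p = 0.979).

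Of 4 nucleotide excision genes 0 passed at 12 or at 9 against 3 months, with medians of 0.07 and 0.04. Xpa, which checks the damaged strand before it is cut, rose at 9 against 6 months and along the trend. Xpa had 11.2, 12.4, 7.97, 11.2 and 10.6 CPM in the 3 month libraries, 9.23, 9.88, 9.06, 9.36 and 8.09 CPM at 6 months, 10.4, 17.3, 17.6, 18.4 and 9.44 CPM at 9 months and 14.2, 14.2, 11.9 and 15.9 CPM at 12 months. At 9 months replicates 2, 3 and 4 lay between 17.3 and 18.4 CPM while replicates 1 and 5 lay within the 3 month range. Xpa changed by 0.68 ± 0.17 at 9 against 6 months, by 0.45 ± 0.17 at 9 against 3 months and by 0.39 ± 0.18 at 12 against 3 months (edgeR adjusted p = 0.0122, 0.0607 and 0.126). Over the trend it changed by 0.56 ± 0.20 (edgeR adjusted p = 0.0384). The trend call was lost in 6 of the 19 fits that leave out 1 library, those without replicates 3 or 5 at 3 months, replicate 3 at 9 months, or replicates 1, 2 or 4 at 12 months (highest adjusted p = 0.082), in limma-voom, after correcting for length and GC, and without the 3 libraries above 5 CPM of Cr2. At 9 against 3 months it passed without replicate 1 or replicate 5 at 9 months (lowest adjusted p = 0.010).

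Ercc1, part of the nuclease that cuts on the 5′ side of the damage, and Ercc2, a helicase of the transcription factor TFIIH, showed no call in any comparison. Ercc1 gave 15.8, 14.7, 14.8, 17.9 and 18.5 CPM in the 3 month libraries, 16.4, 16.7, 14.5, 19.9 and 16.9 CPM at 6 months, 16.8, 16.2, 18.2, 19.3 and 15.2 CPM at 9 months and 17.9, 16.99, 18.3 and 17.98 CPM at 12 months. Ercc2 measured 25.7, 28.5, 33.2, 31.4 and 32.7 CPM in the 3 month libraries, 28.9, 31.3, 27.7, 33.4 and 29.1 CPM at 6 months, 33.9, 26.8, 28.97, 26.8 and 30.3 CPM at 9 months and 27.99, 29.7, 33.5 and 28.5 CPM at 12 months. All 4 ages overlap in both genes, with changes of 0.12 ± 0.10 and -0.02 ± 0.09 at 12 against 3 months (edgeR adjusted p = 0.413 and 0.905). Xpc, which finds the distorted helix, changed by 0.01 ± 0.08, with 46.3 ± 2.04 CPM in the youngest and 46.7 ± 2.24 CPM in the oldest group (mean ± SD, n = 5 and 4). With an SE of 0.08 to 0.18 on the log2 scale these data limit how small a change could be seen, and a p above the threshold does not show that the levels were equal.

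Levels compared between genes are given per kilobase of the longest matched transcript. Per kilobase, Apex1 was the highest of the 39, at 39.1 ± 6.43 CPM per kb (SD, n = 5) at 3 months, followed by Xrcc6 at 24.9 ± 2.97 and Msh6 at 23.2 ± 1.59, whose ranges overlap. Among the lowest at 3 months were Fancd2 at 1.87 ± 0.70, Palb2 at 1.99 ± 0.70 and Bard1 at 2.06 ± 0.62 CPM per kb, which do not differ beyond their spread. Brca1 at 4.44 ± 0.80 and Brca2 at 3.34 ± 0.60 stood lower than the nucleotide excision genes, of which Xpc was at 12.7 ± 0.56 and Ercc2 at 8.47 ± 0.88 CPM per kb. Exons of 15 of the 39 genes overlap exons of a protein-coding gene on the other strand, among them Rad54l with Lrrc41, Trp53bp1 with Tubgcp4, Fanca with Zfp276, Fanci with Polg, Apex1 with Pip4p1 and Ercc2 with Klc3. No source used here says whether the counting used strand, so part of the counts of those genes may belong to the neighbour.

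Among other genes of the same 7 pathways more fell than rose. Of 114 such genes 109 were tested, and 32 fell and 4 rose at 12 against 3 months, beside the 11.5% and 10.9% of all genes, with a median of -0.17. At 9 against 3 months 44 fell and 0 rose, beside 13.6% and 11.3% of all genes. The counts per pathway that follow stand beside the same shares, and those of the smaller lists can lie near them. In break signalling 7 of 18 fell, led by Rif1, a partner of Trp53bp1 (-0.75 ± 0.08), Rnf168, a ubiquitin ligase that recruits it (-0.40 ± 0.07), and Topbp1, an activator of Atr (-0.50 ± 0.10). In recombination 8 of 25 fell and 1 rose, led by Brip1, a helicase that binds Brca1 (-0.80 ± 0.18), and including Rad18, a ubiquitin ligase (-0.77 ± 0.19). Rif1 went from 129.5 ± 6.77 to 77.1 ± 5.76 CPM (mean ± SD, n = 5 and 4).

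Among other end joining genes, with a median near 0.00, 2 of 9 fell, Paxip1 (-0.45 ± 0.09) and Aplf (-0.44 ± 0.10), and the polymerase gene Polm rose (0.58 ± 0.14). In the Fanconi pathway 3 of 16 fell, including Usp1, which removes ubiquitin from Fancd2 (-0.49 ± 0.09), and Ube2t, the enzyme that places it (-0.93 ± 0.20), and 1 rose, listed in the table as Stra13 (0.44 ± 0.12). In mismatch repair 4 of 9 fell and 0 rose, among them the ligase Lig1 (-0.65 ± 0.17) and Rfc1 (-0.24 ± 0.07). Base excision showed 4 of 17 lower and 1 higher at 12 months and 7 lower and 0 higher at 9 months, with Ung, a glycosylase that removes uracil (-0.80 ± 0.23), Parp2 (-0.28 ± 0.09) and Parp1 (-0.23 ± 0.07) lower at 12 months. In nucleotide excision repair 4 of 15 fell and 0 rose, by small amounts, as in Rad23b (-0.23 ± 0.06), Ddb1 (-0.18 ± 0.06) and Gtf2h1 (-0.18 ± 0.06).

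Genes switched on by p53, the transcription factor that damage signalling stabilises, had few calls. Of 25 tested, 2 rose and 1 fell at 12 against 3 months, with a median of -0.01, beside 10.9% and 11.5% of all genes. At 9 against 3 months 4 rose and 0 fell, with a median of 0.08, beside 11.3% and 13.6%, and along the trend 3 rose and 0 fell. At 12 months Zmat3 and Gadd45a rose (0.30 ± 0.07 and 0.58 ± 0.14) and Eda2r fell (-0.49 ± 0.16). Cdkn1a, the cell cycle inhibitor most used as a readout of p53, had means of 33.3 ± 13.1 CPM in the youngest and 34.5 ± 8.29 CPM in the oldest group (SD, n = 5 and 4), and differed by 0.05 ± 0.24 (edgeR adjusted p = 0.902).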

How the data were processed

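RNA of 19 ovary libraries was compared over 4 ages, grouped by the age label. The library kit preserves strand, per the labels' protocols, and the submitters' processing notes name the build mm10. For aligner and counter: not given in the sources used here. The authors deposited estimated counts per gene, per the file headers, for 36172 genes, with 17.4% to 21.4% of nonzero values whole within 1e-08, and these were rounded before testing. The authors also deposited log2 values set relative to the median of the youngest age, which served only as an alternative and whose normalization no source names. The 1 column per table that matches no sample was not used.

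Counts were tested in edgeR 4.0.16 (R 4.3.3) by the quasi-likelihood test with TMM factors, 1 mean for each age, all 19 libraries in 1 fit, a minimum count of 10 and minimum total of 15. Adjusted p-values are Benjamini-Hochberg values over 15518 genes, with a threshold of 0.05. Changes are log2 ± standard error, and the trend is the change over 9 months. CPM are counts scaled by TMM library size. The tests were tried on simulated counts with known changes. Alternatives used DESeq2 1.42.0 and limma 3.58.1, other filters and thresholds, marker lists as covariates, a correction for length and GC, and each library left out.

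The 39 genes, the lists and the tests were chosen with earlier results of these data known, and the promoter motifs after the changes had been seen. Values per library are printed for up to 3 genes in each role with the smallest unadjusted p at 12 against 3 months or along the trend, and up to 3 genes past the threshold are named from each list of other genes, of which some are not reported here. Lengths come from GENCODE transcripts and promoter windows from RefSeq, both on GRCm38.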

Additional observations from a re-analysis of the deposited data

Results flagged for a closer look

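Brca2 in replicate 5 at 6 months, at 40.24 CPM, stood apart from the other libraries of that age, which lay between 31.24 and 32.86 CPM. The gap was 0.821 of the whole range, above the critical value of 0.71 for 5 libraries. In 84 groups of libraries tested over 21 genes this was the 1 such value, where chance gives about 1 in 20. The same library had the highest oocyte and proliferation sums at 6 months, 813.4 and 1202 CPM. Its sums of other genes were also the highest of that age in each repair pathway. Its macrophage (640.4), endothelial (552.6), surface epithelium (747.5) and oviduct (2482 CPM) sums were the lowest, as were those of theca and interstitial and of B and plasma cell genes. The part of any of these in the value was not tested.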

How the results depend on the processing

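Of the counts over genes or members, 255 alternatives stayed within 1.5 times of the reported value and 21 did not. Of the changes of single genes 554 kept direction and call, 46 lost and 30 gained a call and 21 changed sign. Of those 554, 358 came from fits that leave out 1 library and so share nearly all their data with the reported fit. Counts of 0 that stayed 0 and genes never called also count as kept. Of the 21 genes, 6 kept direction and call with the oocyte covariate and 6 with the proliferation covariate. With the oocyte or the proliferation list as a covariate, members called were 0 and 0 at 12 against 3 months, 0 and 0 at 9 against 3, 0 and 1 at 9 against 6, 0 and 0 along the trend and 0 and 0 for any difference, and genes called were 39 and 144 at 12 against 3 months and 24 and 40 along the trend. At an adjusted p under 0.01, 7 members and 1354 genes were called at 12 against 3 months, and 11 and 2349 along the trend, as a stricter threshold must give fewer. With a length and GC correction 17 members were called along the trend, and the cause was not tested. Leaving out 1 library gave 8 to 19 members and 2124 to 3806 genes at 12 against 3 months, both lowest without replicate 3 at 12 months. That fit lost Rad50, Rad51c, Blm, Xrcc6, Fancm, Pms2 and Chek2. At 12 months some changes turned positive: with the oocyte list Fancd2 (0.1659), Fanci (0.0522), Apex1 (0.0958), Xrcc1 (0.0794) and Ercc2 (0.0665), and with the proliferation list Xrcc6 (0.0048), Fancd2 (0.3683), Fanci (0.0218), Apex1 (0.1881), Xrcc1 (0.104) and Ercc2 (0.0201). Among genes near 0, Xrcc1 was 0.0 without the 3 libraries above 5 CPM of Cr2 and ran from -0.0639 to 0.0595 with 1 library left out, Ercc2 was 0.0004 in limma-voom and ran from -0.0743 to 0.0157, and Ercc1 was -0.0043 with the length and GC correction. DESeq2 called 21 members at 12 against 3 months, and a fit to the 2 ages alone called 11. The share of all genes called is not given for these settings or for the length and GC correction. Their counts of members are therefore not set against all genes. No paired analysis was possible because the labels give the ages no shared replicate numbers. The widest standard errors at 12 against 3 months were those of Chek1, Fancd2 and Palb2.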
